A study of Caenorhabditis elegans with 6 samples.

Results

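The aquaporins of Caenorhabditis elegans are described here through 10 genes, aqp-1 to aqp-8, aqp-10 and aqp-11, taken by name from the deposited gene table. They are 10 of 22389 genes with read counts, and 7 of the 10 had enough reads to be among the 13778 genes tested. Polyadenylated RNA came from adult worms kept on solid medium, in 3 libraries of N2, the laboratory wild type, and 3 libraries of a CRISPR deletion of linc-4 made in the N2 background, where linc-4 is a long intergenic non-coding RNA gene. No age in hours, no treatment and no further allele is given for either group, and the labels name neither the extent of the deletion nor how many lines carry it. The aqp-9 and aqp-12 genes carry the same family name but are outside the list. They had log2 fold changes, mutant over wild type, of 0.38 and -0.66, with adjusted p of 0.34 and 0.22 by limma-voom.

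Aquaporins are channel proteins of cell membranes that let water pass down an osmotic gradient. A subgroup, the aquaglyceroporins, also lets glycerol and other small solutes through. In nematodes, water and solute balance involves the intestine, the epidermis and the excretory canal cell, a large tubular cell that discharges fluid, and worms in high salt accumulate glycerol. In C. elegans, aqp-1 is known as a glycerol channel gene that the transcription factors DAF-16 (the FOXO factor held back by insulin signalling) and HSF-1 activate and dietary glucose lowers.

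By the gene ontology terms of the deposited table, all 10 genes encode proteins with channel activity. Glycerol transport is annotated for 3 of them, aqp-1, aqp-3 and aqp-7. Water channel activity is annotated for 6, namely aqp-2 to aqp-7, so that aqp-3 and aqp-7 carry both terms and aqp-1 carries only glycerol transport. The remaining aqp-8, aqp-10 and aqp-11 carry neither term. For place in the cell, aqp-1 is annotated to the basolateral and aqp-4 to the apical plasma membrane, aqp-6 to neuronal cell bodies and cilia, and aqp-10 and aqp-11 to the cytoplasm. The innate immune response is a term of both aqp-1 and aqp-10.

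Total gene counts ran from 3736372 to 7428665 in the wild type libraries and from 6560089 to 12790323 in the linc-4 libraries. The targeted gene was nearly absent from the mutant: linc-4 had 193, 345 and 234 reads in wild type 1 to 3 and 5, 1 and 1 reads in linc-4 1 to 3. The first principal component of the tested genes separated the groups. The second held 20.3% of the variance and placed wild type 2 and linc-4 3, the deepest library of each group, on one side and the other 4 libraries on the other. At a Benjamini-Hochberg adjusted p under 0.05 by limma-voom, the mutant had 1591 genes called higher and 989 called lower, a split that became 2065 and 476 with upper-quartile scaling. Each library held the RNA of whole worms, so a change in the number of cells of a type and a change in RNA per cell cannot be told apart, and nothing in the labels says that libraries came from separate cultures, so p-values measure the spread between these libraries.

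Among the aquaporin genes, aqp-1 was the one that passed the test, and it was 4.60-fold higher in the linc-4 mutant. It was read 86, 144 and 129 times in wild type 1 to 3 and 814, 718 and 1316 times in linc-4 1 to 3. In CPM, the reads of a gene relative to the scaled size of its library in megareads, its level was 22.1, 21.9 and 23.3 CPM in the wild type libraries and 104.2, 107 and 100.2 CPM in the mutant libraries. Every mutant library was far above every wild type library. The mean rose from 22.4 ± 0.731 to 103.7 ± 3.26 CPM (SD, n = 3 each), a log2 fold change of 2.20 (SE 0.14, 95% interval 1.89 to 2.51) with limma-voom giving adjusted p = 1.9e-06. By size of the rise aqp-1 was 74th of the 13778 genes tested, and by p-value it was 5th. The libraries of 1 group agreed closely on this gene, with a coefficient of variation of 3.26% in wild type and 3.15% in the mutant, where counting alone would give 9.37% and 3.36%, so that the SD of wild type is smaller than the counting error of its reads.

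Over all tested genes 18.7% were called, 11.5% higher and 7.18% lower, so 1 aquaporin gene called of 7 tested is near the background and is not a result about the family. None of the 7 was called lower by limma-voom, at an unadjusted p under 0.05, by limma-trend or in the authors' deposited table, and at the unadjusted threshold 2 were higher, aqp-1 and aqp-10. The same 2 genes had groups that did not overlap, both higher in the mutant, which held for 21.2% of all tested genes in that direction and for 17.7% in the other. The median log2 fold change of the 7 genes was 0.21, and that of all tested genes was -0.01.

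**Figure D1:**
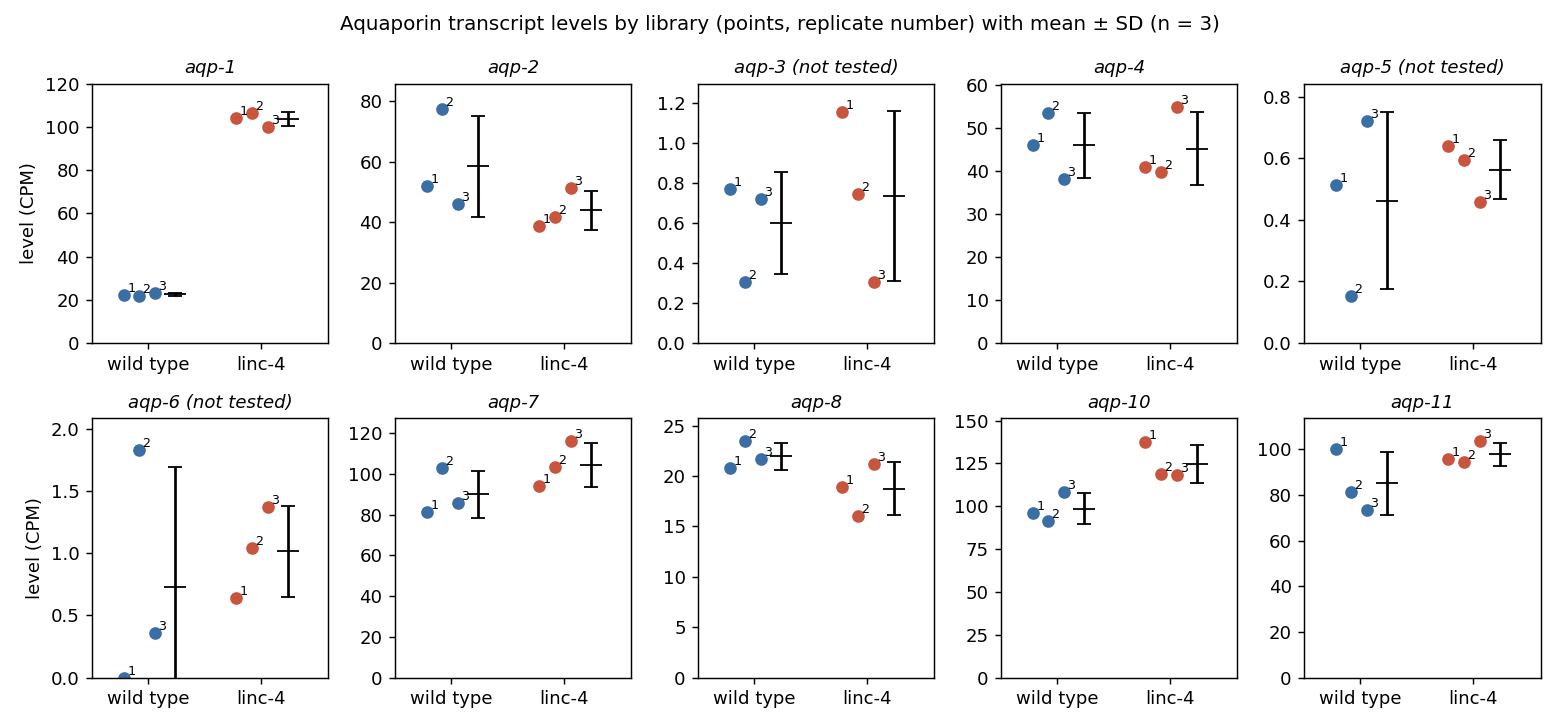
Level of each aquaporin gene (vertical axis, CPM, from 0) in 3 wild type and 3 linc-4 libraries; points are libraries labelled by replicate number, and bars are the mean ± SD, with the lower arm for aqp-6 in wild type cut at 0. The aqp-1 points lie from 21.9 to 23.3 CPM in wild type and from 100.2 to 107 CPM in the mutant, while among the other 6 tested genes aqp-10 alone has groups that do not overlap.

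The aqp-1 gene (WBGene00000169) lies on chromosome II between 7235834 and 7238349 of WBcel235, on the minus strand, and its 3′ end overlaps that of F32A5.3, a gene on the opposite strand for a serine carboxypeptidase family protein, by 87 bp. In the gene models of Ensembl release 115, which place the end of aqp-1 slightly further on and name the neighbour ctsa-3.1, the shared stretch is 93 bp of exon, or 9.01% of the exonic length of aqp-1. Without knowing whether the counting used strand, reads from this stretch cannot be assigned with certainty to either gene. F32A5.3 itself was read 123, 156 and 169 times in wild type and 202, 170 and 265 times in the mutant. Its level was 28.6 ± 4.26 CPM in wild type and 23.8 ± 3.12 CPM in the mutant (SD, n = 3 each; log2 fold change -0.27, adjusted p = 0.30 by limma-voom). Its groups overlapped, and its mean was lower in the mutant while that of aqp-1 was higher. Per read of F32A5.3 there were 0.795 ± 0.115 reads of aqp-1 in wild type and 4.41 ± 0.494 in the mutant (SD, n = 3 each).

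The other genes annotated to glycerol transport gave different values. aqp-7 (WBGene00000175, chromosome X, 3025505 to 3026976, plus strand), annotated as a channel for water and glycerol, had 81.3, 103 and 85.5 CPM in wild type and 94.2, 103 and 116 CPM in the mutant. The groups overlapped. The log2 fold change was 0.21 (SE 0.15, 95% interval -0.10 to 0.53, adjusted p = 0.32 by limma-voom), an interval that spans 0.930-fold to 1.45-fold. aqp-3 (WBGene00000171, chromosome IV, 10961355 to 10966459, minus strand) was barely detected, with 3, 2 and 4 reads in wild type and 9, 5 and 4 in the mutant. It did not reach the minimum for testing. By summed reads, 9 against 18, the mutant-to-wild-type ratio after scaling for depth was 1.16, with an exact 95% binomial interval of 0.493 to 2.92 that covers counting error only.

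Of the 4 genes annotated to water but not glycerol, aqp-2 and aqp-4 were well measured, and neither passed the test. aqp-2 (WBGene00000170, chromosome II, 9258913 to 9261994, minus strand) stood at 51.9, 77.5 and 46.0 CPM in wild type and at 38.7, 41.7 and 51.2 CPM in the mutant. Wild type 2 was well above every other library, and the highest mutant library lay inside the wild type range. The mean was 58.5 ± 16.7 CPM in wild type and 43.9 ± 6.51 CPM in the mutant (SD, n = 3 each; log2 fold change -0.39, SE 0.20, 95% interval -0.81 to 0.03, adjusted p = 0.17 by limma-voom). Leaving out wild type 2 moved this to -0.16 and leaving out wild type 3 to -0.56, with adjusted p of 0.53 and 0.089.

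aqp-4 (WBGene00000172, chromosome V, 9737556 to 9739740, plus strand), whose product is annotated to the apical membrane, had 46.0, 53.6 and 38.2 CPM in wild type and 40.8, 39.8 and 55.0 CPM in the mutant. The ranges were nearly the same in both groups. The log2 fold change was -0.02 (SE 0.18, 95% interval -0.40 to 0.36, adjusted p = 0.95 by limma-voom), an interval that spans 0.756-fold to 1.29-fold. Its sign turned to 0.10 without wild type 2, and a sign this close to 0 carries no direction. aqp-4 shares 39 bp with marc-1 on the same strand. marc-1 had 17 reads in all wild type and 66 in all mutant libraries, few beside the 743 and 1309 reads of aqp-4. How the counting treated reads from the shared stretch is not known, so these counts do not bound its effect on aqp-4. marc-1 itself had a log2 fold change of 1.09 with adjusted p = 0.048 by limma-voom. Each of the 6 fits that left out a library lost this call, with the highest adjusted p, 0.15, reached when wild type 3 was absent.

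The remaining water channel genes, aqp-5 and aqp-6, were near the limit of detection. aqp-5 (WBGene00000173, chromosome V, 10491743 to 10493268, plus strand) was read 2, 1 and 4 times in wild type and 5, 4 and 6 times in the mutant. Summed, its 7 and 15 reads gave a depth-scaled ratio of 1.24 (95% binomial interval 0.475 to 3.59). aqp-6 (WBGene00000174, chromosome V, 10648446 to 10651952, plus strand), annotated to neuronal cell bodies and cilia, had 0, 12 and 2 reads in wild type and 5, 7 and 18 in the mutant. The 12 reads of wild type 2 made up most of the wild type total of 14, and 0 reads in wild type 1 allow a level of up to 0.771 CPM. The ratio was 1.24 (0.637 to 2.53). aqp-3 and aqp-6 each contain a non-coding RNA gene on the opposite strand, Y69E1A.14 and C32C4.10, which in Ensembl release 115 share 15 bp and 23 bp with their exons, or 1.04% and 1.94% of the exonic length. For aqp-3, aqp-5 and aqp-6 a 2-fold rise lies within the interval and was not excluded at this depth. For aqp-3 and aqp-5 a 2-fold fall lies within it as well.

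The genes with neither term were all well measured, and none of them passed the test by limma-voom. aqp-10 (WBGene00000178, chromosome II, 9768357 to 9769847, minus strand) had the highest mean level of the family per length of exon in both groups. In wild type its range overlapped that of aqp-11, and it was the higher of the 2 genes in 2 of 3 libraries. Its values were 96.2, 91.2 and 108 CPM in wild type and 138, 119 and 118 CPM in the mutant. Every mutant library was above every wild type library, with a narrow gap between 108 and 118 CPM. The mean was 98.6 ± 8.87 CPM in wild type and 125 ± 11.1 CPM in the mutant (SD, n = 3 each), a log2 fold change of 0.34 (SE 0.14, 95% interval 0.04 to 0.64). The unadjusted p was 0.030 and the adjusted p was 0.10 by limma-voom, which misses the threshold. In the authors' deposited table its log2 fold change was 0.32 with an adjusted p of 0.20. With upper-quartile scaling aqp-10 passed at adjusted p = 0.044 and a log2 fold change of 0.45. That scaling moved the median of all genes by 0.11, and relative to it the change of aqp-10 was 0.34.

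aqp-11 (WBGene00000179, chromosome III, 13673280 to 13674746, plus strand) had 100.3, 81.3 and 73.4 CPM in wild type and 95.5, 94.3 and 103 CPM in the mutant. Wild type 1 lay inside the mutant range and the other wild type libraries below it. The log2 fold change was 0.22 (SE 0.15, 95% interval -0.10 to 0.54, adjusted p = 0.31 by limma-voom). aqp-8 (WBGene00000176, chromosome X, 4702442 to 4704970, minus strand), a gene of the excretory canal cell, had 20.8, 23.4 and 21.6 CPM in wild type and 18.9, 16.04 and 21.2 CPM in the mutant. The library linc-4 3 fell inside the wild type range and the other mutant libraries lay below it. The log2 fold change was -0.23 (SE 0.17, 95% interval -0.59 to 0.13, adjusted p = 0.35 by limma-voom).

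**Figure D2:**
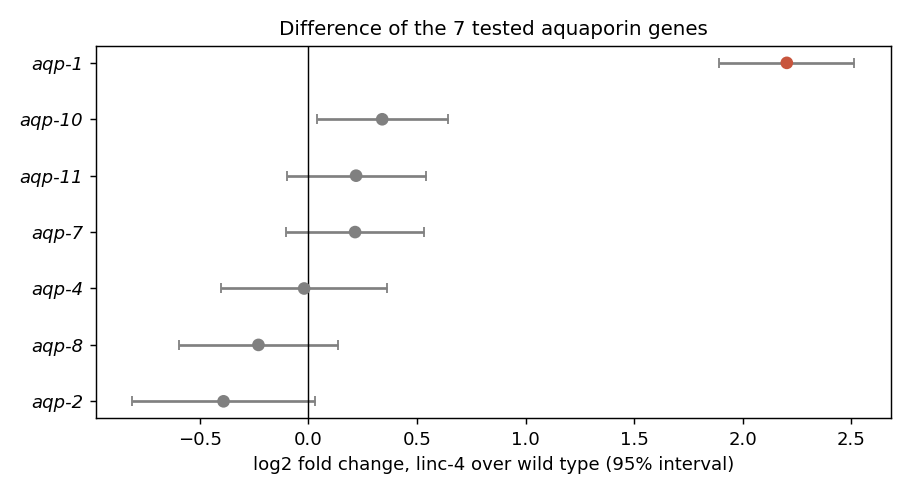
Log2 fold change, linc-4 over wild type (horizontal axis), of the 7 tested aquaporin genes with 95% intervals from limma-voom; red marks the gene past the threshold and grey the others. The interval of aqp-1, from 1.89 to 2.51, lies far to the right of those of the other genes, the highest of which ends at 0.64.

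For the 6 tested genes other than aqp-1, the log2 fold changes ran from -0.39 to 0.34, and the widest limits of their 95% intervals were -0.81 and 0.64. A p-value above the threshold does not show that a gene was unchanged, but for each of these genes a change as large as that of aqp-1 lies outside the interval. The reads of aqp-1 per read of another aquaporin gene in the same library do not depend on how libraries are scaled. Per read of aqp-8 there were 1.02 ± 0.0772 reads of aqp-1 in wild type and 5.62 ± 0.971 in the mutant (SD, n = 3 each). For aqp-7 as the denominator the ratio was 0.252 ± 0.0343 in wild type and 1.00 ± 0.124 in the mutant, and for aqp-10 it was 0.228 ± 0.0130 and 0.835 ± 0.0713. Over all 6 aquaporin denominators the ratio rose between 3.65-fold, for aqp-10, and 6.05-fold, for aqp-2, with no overlap between groups. A two-sided exact permutation test gave p = 0.1 for each of the 7 ratios computed, F32A5.3 included, and 0.1 after Benjamini-Hochberg adjustment, which is the smallest p that 3 against 3 libraries allow. Groups without overlap can give no other value in this test, so it adds no support to the rise of aqp-1.

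**Figure D3:**
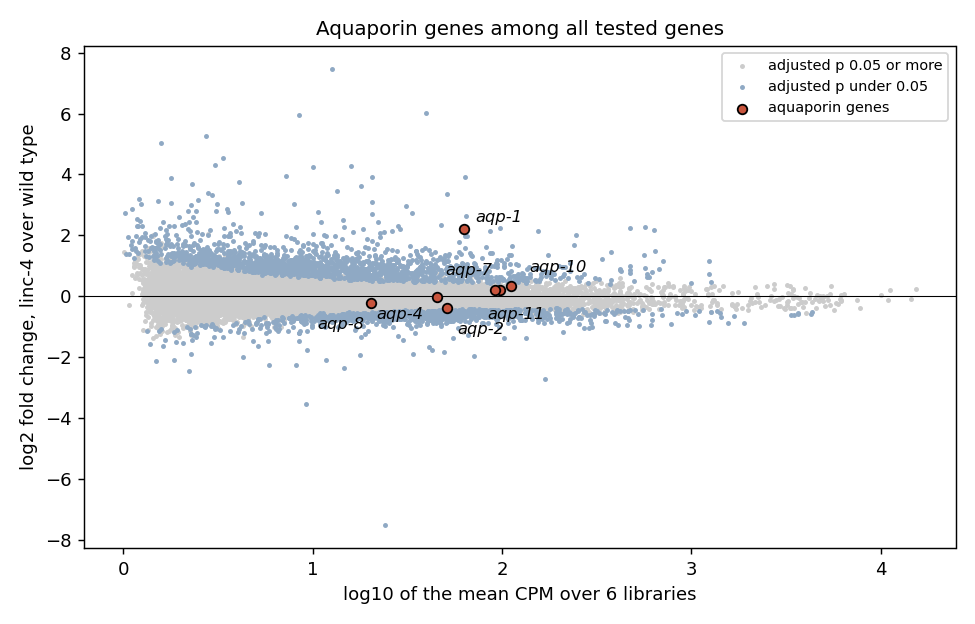
Log2 fold change, linc-4 over wild type (vertical axis), against the log10 of the mean CPM over 6 libraries (horizontal axis) for all 13778 tested genes, with genes at an adjusted p under 0.05 in blue and the 7 tested aquaporin genes as large points. aqp-1 stands at 2.20, the 74th highest of the 13778 values, and the other 6 lie between -0.39 and 0.34.

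Levels can be compared between genes per length, here as CPM per kilobase of exon in Ensembl release 115. In wild type aqp-10 led with 100.3 ± 9.02, followed by aqp-11 with 94.4 ± 15.3 and aqp-7 with 72.6 ± 9.33 CPM per kb (SD, n = 3 each). The ranges of these neighbours overlapped. aqp-4 with 42.7 ± 7.13 and aqp-2 with 41.01 ± 11.7 CPM per kb formed the next pair and overlapped each other, but not aqp-7 above or aqp-1 below. aqp-1 followed with 21.7 ± 0.708 and aqp-8 with 12.8 ± 0.780 CPM per kb, without overlap. aqp-6, aqp-5 and aqp-3 were all under 0.7 CPM per kb on average and could not be ordered among themselves.

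In the mutant aqp-1 moved from the 6th to the 3rd place, with 100.5 ± 3.16 CPM per kb, below aqp-11 with 109 ± 5.52 and above aqp-7 with 84.3 ± 8.78 (SD, n = 3 each). The order of the other genes was the same in both groups. Neighbours from aqp-10 down to aqp-8 did not overlap in the mutant. Lengths and levels rest on the annotation, and aqp-4 alone had the same positions in Ensembl release 115 and in the deposited table. aqp-7 begins at 3025063 in Ensembl release 115 and at 3025505 in the deposited table. The lower end of aqp-10 lies at 9768458 in the former and at 9768357 in the latter. Levels per length, and the order of genes close in level, carry this additional uncertainty.

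Summed over the 10 genes, aquaporin transcripts came to 387 ± 20.96 CPM per kb in wild type and 506 ± 18.8 CPM per kb in the mutant (SD, n = 3 each). Library values were 389, 407 and 365 in wild type and 501, 490 and 527 in the mutant, with no overlap. Without aqp-1 the sums were 365 ± 21.6 and 406 ± 21.98 CPM per kb, again without overlap but with only 386 against 387 CPM per kb between the nearest libraries. aqp-1 supplied 5.63 ± 0.489% of the family sum in wild type and 19.9 ± 1.35% in the mutant. The share of aqp-2 was 10.5 ± 2.46% in wild type and 6.07 ± 0.706% in the mutant. These sums and shares are descriptions of a chosen set of genes and carry no test.

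**Figure D4:**
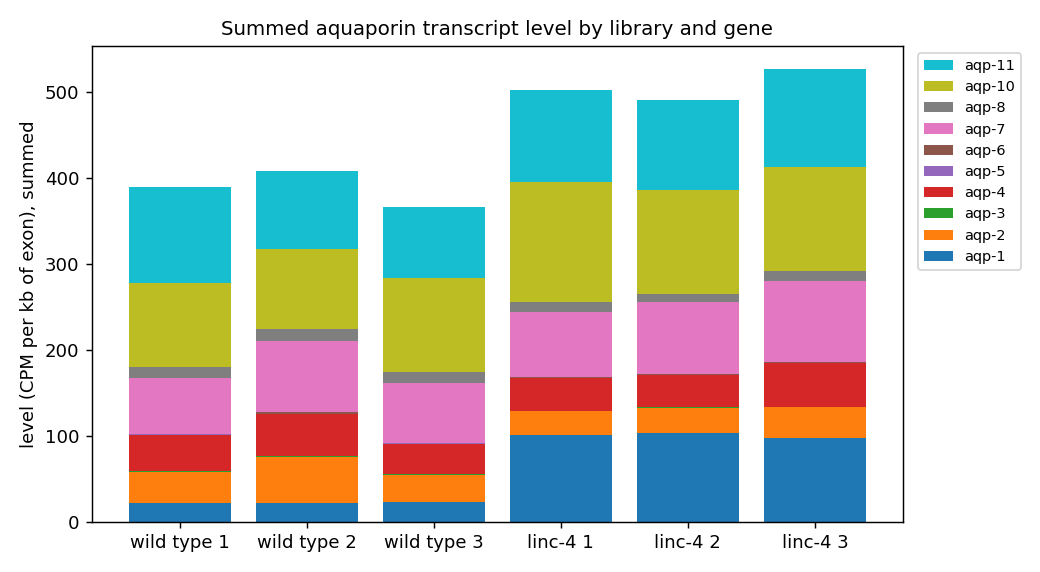
Stacked level of the 10 aquaporin genes (vertical axis, CPM per kb of exon, from 0) in each of the 6 libraries. The aqp-1 segment at the bottom is from 21.2 to 22.6 CPM per kb in the wild type libraries and from 97.1 to 103 CPM per kb in the linc-4 libraries, and the total runs from 365 to 407 in wild type and from 490 to 527 in the mutant.

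Within groups the genes did not all vary together. aqp-2, aqp-4, aqp-7 and aqp-8 were each highest in wild type 2 among the wild type libraries and in linc-4 3 among the mutant libraries, as were 22.6% of all tested genes. These are the libraries that the second principal component set apart and the deepest of their groups, and what part depth has in this was not tested. Of 13 intestine marker genes 6 were highest in the same libraries and 7 were not, and 13 sperm genes gave the same counts. In the other gene lists described below the share ran from 0% to 42.9%. The part of any of these genes in the aquaporin values was not tested. The spread of aqp-2 in wild type was 28.6%, where counting alone would give 6.01%. aqp-1, aqp-10 and aqp-11 did not follow this order in both groups, and aqp-1 had the smallest spread of the 7 tested genes in each group. Without wild type 2 and linc-4 3 together, an alternative chosen after seeing the data, the log2 fold change was 2.20 for aqp-1 (adjusted p = 4.5e-07 by limma-voom), -0.29 for aqp-2 and -0.06 for aqp-4, and aqp-1 was again the single aquaporin call.

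Genes of glycerol metabolism and the osmotic response included 3 that rose among 15 tested and none that fell, with a median log2 fold change of 0.17. gpdh-1, a glycerol-3-phosphate dehydrogenase that supplies glycerol under osmotic stress, rose 3.94-fold. Its level was 2.16 ± 0.681 CPM in wild type and 8.14 ± 0.792 CPM in the mutant (SD, n = 3 each; limma-voom adjusted p = 0.0010). pgph-3, which belongs to the phosphoglycolate and glycerol phosphate phosphatase group, had 10.4 ± 4.45 CPM in wild type and 33.3 ± 4.88 CPM in the mutant, a 3.32-fold rise. hmit-1.3, of a family of transporters for the osmolyte myo-inositol, rose 1.78-fold from 12.4 ± 2.38 CPM, a call lost without linc-4 2 (adjusted p = 0.050). The other rows of the list did not pass. Among them the related gpdh-2, named here although it was not called, had a log2 fold change of -0.07 (adjusted p = 0.77 by limma-voom). These 3 of 15 stand beside 11.5% of all tested genes called higher, so the count is not far from the background. No gene of the list fell with limma-trend or in the authors' deposited table either, and 1 was lower at an unadjusted p under 0.05.

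Of 20 tested ion and chloride transport genes 1 rose and 1 fell, beside 11.5% and 7.18% of all tested genes, with a median of -0.09. nkb-2, a beta subunit gene of the sodium-potassium pump, rose 2.01-fold and clh-5, a chloride channel family gene, fell 1.65-fold. Both calls went when wild type 1, wild type 3 or linc-4 2 was absent, and that of nkb-2 also in the absence of linc-4 3 (highest adjusted p 0.097 for nkb-2 and 0.089 for clh-5). Of 21 genes for the V-ATPase, the proton pump of the canal and intestine membranes, none passed in either direction by limma-voom, with a median of -0.17. Their summed level was 3012 to 3546 CPM in wild type and 2802 to 2930 CPM in the mutant, without overlap, a sum that carries no test. At an unadjusted p under 0.05, 2 of them were lower, and 1 was called lower in the authors' deposited table and 1 with median-of-ratios scaling. Without wild type 1, 1 was called higher.

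Genes reported elsewhere as DAF-16 targets were called in both directions. Of 14 tested, aqp-1 left out, 7 rose and 2 fell, with a median log2 fold change of 0.58, against 11.5% and 7.18% of all genes. Over the fits that left out a library, 6 to 7 were called higher and 2 lower. The authors' deposited table and the fit without wild type 2 and linc-4 3 each had 6 higher and 2 lower. icl-1, of the glyoxylate cycle, rose 3.95-fold to 104.1 ± 3.37 CPM in the mutant. ftn-1, a ferritin gene, rose 3.91-fold and dod-3 rose 2.81-fold. sod-3, a mitochondrial superoxide dismutase gene often used to read out DAF-16, fell 3.98-fold, with 6.86 ± 0.672 CPM in wild type and 1.69 ± 0.464 CPM in the mutant (SD, n = 3 each; limma-voom adjusted p = 0.00069). The list was drawn up with earlier results of these data known and is not independent evidence of a direction.

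Among 9 insulin pathway and heat shock regulators, pqm-1, a zinc finger factor that acts opposite to DAF-16, rose 1.88-fold from 14.6 ± 2.38 CPM (adjusted p = 0.0060 by limma-voom), and the other 8 did not pass. Of all tested genes 11.5% were called higher and 7.18% lower. None of the 9 was called lower with limma-trend or in the authors' deposited table, but 3 were at an unadjusted p under 0.05, and 2 were called lower without wild type 2 and 1 without linc-4 2. daf-16 had 21.4 ± 3.06 CPM in wild type and 16.22 ± 0.332 CPM in the mutant (log2 fold change -0.39, adjusted p = 0.12). hsf-1 had 9.55 ± 1.81 and 7.77 ± 0.473 CPM (log2 fold change -0.25, adjusted p = 0.41).

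Marker genes of tissues that could carry aquaporin transcripts are read beside 11.5% of all tested genes called higher and 7.18% called lower. Of 13 tested intestine genes 2 rose and 2 fell, with a summed level from 5688 to 7531 CPM in wild type and from 5455 to 5760 CPM in the mutant. cpr-1, a cathepsin B gene, rose 1.99-fold, ges-1, a gut esterase gene, rose 1.56-fold, and vit-6, a yolk protein gene, fell 1.57-fold. The other gene that fell was vit-2, also a yolk protein gene, named after its values were seen, and each of the 6 fits lacking a library lost its call (highest adjusted p 0.16). The ges-1 call held in 1 of the 6 fits with a library removed, that lacking wild type 2, and otherwise reached an adjusted p of 0.18. The vit-6 call went in the absence of wild type 3, linc-4 2 or linc-4 3 (highest adjusted p 0.071). Over those fits the intestine counts ran from 1 to 3 higher and from 0 to 2 lower. Of 13 excretory canal genes none rose and 1 fell, the membrane linker gene erm-1 by 1.47-fold, and their summed levels overlapped at 444 to 507 CPM in wild type and 399 to 449 CPM in the mutant. The erm-1 call held when linc-4 1 or wild type 2 was removed and ended when any other library was (highest adjusted p 0.083). At an unadjusted p under 0.05 and by limma-trend 1 excretory canal gene was also higher.

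Of 11 hypodermis genes 1 rose and 1 fell, and the calls of both, bli-1 and elt-1, did not hold in 5 of the 6 fits that lacked a library (highest adjusted p 0.11 for bli-1 and 0.15 for elt-1), and neither passed in the authors' deposited table. None of 13 neuron genes passed by limma-voom, by limma-trend, at an unadjusted p under 0.05 or in the authors' deposited table. Of 14 body wall muscle genes none fell by any of these rules and 3 rose, beside 11.5% of all tested genes. They were unc-27, tni-3 and mlc-2, with rises of 1.65-fold to 1.76-fold, and the summed muscle level was 2302 to 2575 CPM in wild type and 3033 to 3321 CPM in the mutant. The call of mlc-2 went in the absence of linc-4 2 (adjusted p = 0.053).

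Germ cell genes differed between the groups, with sperm genes mostly higher and oocyte genes mostly lower in the mutant. They are read beside 11.5% of all tested genes called higher and 7.18% called lower. Of 13 sperm genes 9 rose and none fell, with a summed level of 357 to 513 CPM in wild type and 774 to 873 CPM in the mutant. msp-64 and msp-31, of the nearly identical major sperm protein copies, rose 3.07-fold and 2.12-fold, and spe-11 rose 2.23-fold. Among 17 genes of oocytes and eggshells there were 14 that fell and none that rose, with a summed level of 4472 to 5522 CPM in wild type and 3169 to 3283 CPM in the mutant. mex-5, mex-6 and oma-1, which encode RNA-binding proteins of the oocyte, fell 2.02-fold, 1.75-fold and 1.85-fold. Upper-quartile scaling gave 10 oocyte genes called lower, and the fit without wild type 2 and linc-4 3 had 12, while sperm genes called higher numbered 10 in both. Without linc-4 2 the oocyte count was 7. Over the fits that left out a library, sperm genes called higher numbered from 7 to 10 and oocyte genes called lower from 7 to 12. No sperm gene was lower and no oocyte gene higher at an unadjusted p under 0.05, by limma-trend or in the authors' deposited table. No marker with counts in the tissue and germ cell lists was at 0 in every library. opt-2 of the intestine list and exc-3 of the excretory canal list had no counts under those names. The part of germ cell or muscle content in the aquaporin values was not tested.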

How the data were processed

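The members, gene lists and tests were chosen with earlier results of these data known. Per the submitters' processing notes, the authors used TopHat2 2.1.1, cutadapt 2.10, DESeq2 1.22.2 and HTSeq 0.12.4 with WBcel235, with settings and strandedness not given in the sources used here. The deposited table holds the authors' raw read count per gene and library, and their own log2 fold change, standard error and adjusted p-value. The 6 columns of counts divided by size factors were not used. A question mark, read as no value, kept the count columns from being registered as counts, so limma-voom (limma 3.58.1, R 4.3.3) was used. Genes needed the CPM of 10 reads at the median library size in 3 libraries (or in as many as the smaller group holds where a library was left out) and 15 reads in all. Scaling was by trimmed means of M values, computed in a script (30% of log ratios and 5% of abundances trimmed). Tests were two-sided with Benjamini-Hochberg adjustment over 13778 genes and a threshold of 0.05. Positions are those of the deposited table and exon lengths those of Ensembl release 115, both WBcel235. Named genes were all members, the genes overlapping them where tested, linc-4, daf-16, hsf-1, pqm-1 and, by smallest p, up to 4 called genes of each pathway list and 3 of each marker list. gpdh-2 and vit-2 were named outside this rule. Intervals of summed reads are exact 95% binomial intervals and, like the floor of 3 reads, cover counting error only. The floor stood for 0.228 to 0.771 CPM. Pairs of libraries within a group were compared by chi-square, which per degree of freedom was 4.91 to 19.5, above sampling noise. The alternatives changed the scaling (upper-quartile, median-of-ratios), the filter, the model (limma-trend on log2 of CPM with a pseudocount of 1, or the authors' own comparison), added a replicate block or left out libraries. Leaving out wild type 2 and linc-4 3 together was chosen after seeing the data.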

Additional observations from a re-analysis of the deposited data

How the results depend on the processing

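The rise of aqp-1 passed under all 14 alternatives, with log2 fold changes from 2.16 to 2.31 and adjusted p up to 9.4e-05, and linc-4 stayed lower in all of them, from -8.23 to -5.27. In the authors' deposited table the values of aqp-1 were 2.19 with an adjusted p of 7.2e-33. One aquaporin gene was called higher in each alternative except upper-quartile scaling, which called 2, aqp-10 being the second, and none was called lower in any. The sign of aqp-4, never called, turned with upper-quartile scaling (0.090) and without the low-count filter (0.018), and ran from -0.18 to 0.10 with 1 library left out. Of all genes 2580 were called, and 1714 with a replicate block. With 1 library left out the count ran from 947, when linc-4 2 was absent, to 2848. It was 1136 when wild type 1 was absent, 1501 for wild type 3 and 1715 for linc-4 1. Genes called lower, 989 in all, numbered 476 with upper-quartile scaling, 652 without the low-count filter, 504 with the replicate block and 189 to 1241 with 1 library left out. The cause was not tested. Same-numbered libraries of the groups did not deviate together (correlations of 0.10, -0.11 and -0.41), so the numbers were not taken as pairs, and the replicate block changed no aquaporin call. Differently numbered libraries had correlations from -0.43 to 0.49, the highest for wild type 2 with linc-4 3. A block by replicate number does not take this up. Depth limits aqp-3, aqp-5 and aqp-6, which had 27, 22 and 44 reads over all libraries. Fitted without the low-count filter they had adjusted p of 0.98, 0.75 and 0.34.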
